A study of Rattus norvegicus with 8 samples.

Results

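The genes described here encode the enzymes, carriers and regulators of fatty acid oxidation and ketone metabolism. They are a list of 29 genes chosen by name for their place in the pathway, and 28 of them were measured among the 14506 genes tested. The remaining gene, Acaa1a, a peroxisomal thiolase, had only a probe set that it shares with another gene, and no value is given for it. Expression was measured in pancreatic islets of Sprague-Dawley rat fetuses, on 8 arrays with 1 array per litter. Dams of the sham group had a control operation and dams of the other group an operation that restricts growth of the fetuses (intrauterine growth restriction, IUGR), both on embryonic day 18, and islets were taken on embryonic day 19. The islets of each litter were pooled, so an array is an average over its fetuses, and the 4 sham and 4 IUGR litters, each of its own dam, are the replicates. The labels do not say how the operation restricted growth, and they name no genetic change, drug or cell sorting in either group. Values are log2 expression values, on which a difference of 1 is a doubling of signal.

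Fatty acids are bound in the cytosol, joined to coenzyme A, carried into mitochondria as carnitine esters and shortened there in a repeated cycle that passes electrons to the respiratory chain. Peroxisomes shorten fatty acids that mitochondria handle poorly, and the liver turns part of the acetyl-CoA into ketone bodies for other tissues. The nuclear receptor PPAR alpha (Ppara) switches on many of these genes, most strongly in liver, while fetal tissues rely largely on glucose and the pathway is known to gain activity around birth. In beta cells, fatty acid oxidation competes with signals that amplify insulin secretion, and Hadh is known as a brake on it.

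The labelled tissue was checked against its hormone genes. Ins2 lay between 13.67 and 14.24, Ins1 between 13.15 and 14.01 and Gcg between 13.33 and 13.94 on the 8 arrays, close to the top of the scale (14.03 to 14.24). Ppy, another hormone gene, lay between 7.93 and 9.46. Genes of other tissues were also bright, with Ctrb1 (acinar) between 13.08 and 14.06 and Alb (liver) between 11.69 and 13.98. The hormone levels thus show islet transcripts, but not that the arrays held islet tissue alone. The arrays were not alike within the sham group. Sham replicate 4 had a mean of 12.34 over 12 islet endocrine markers, where sham replicates 1 to 3 had 10.87 to 10.96. The interquartile range of gene values was 3.63 in sham replicate 1, 3.06 to 3.23 in sham replicates 2 to 4 and 3.54 to 3.62 in the IUGR litters. Marker genes of liver and other tissues were also measured, and their levels are given beside the results below. In pooled tissue, more cells of a type and more RNA per cell cannot be told apart.

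In IUGR islets 27 of the 28 genes had a higher mean than in sham islets, by a median of 0.59 over the 28 (log2), where the median over all genes tested was 0.04 and 55.1% of them were higher. None of the 28 passed the threshold: adjusted p-values ranged from 0.0739 to 0.466 (limma, Benjamini-Hochberg adjustment over all genes), with 0.248% of all genes past 0.05. At an unadjusted p under 0.05, 20 of the 28 were higher and 0 lower, against 15.4% of all genes that were higher and 10.7% that were lower at that level. The 4 IUGR litters lay above all 4 sham litters in 17 of the 28, or 60.7%, against 10.0% of all genes, and in the other 11 the groups overlapped. No gene of the list had all IUGR litters below all sham litters. Differences were greatest for Ppara, Bdh1, Fabp1 and Ppargc1a, between 1.43 and 2.05, and Crat was the gene with a lower mean.

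**Figure D1:**
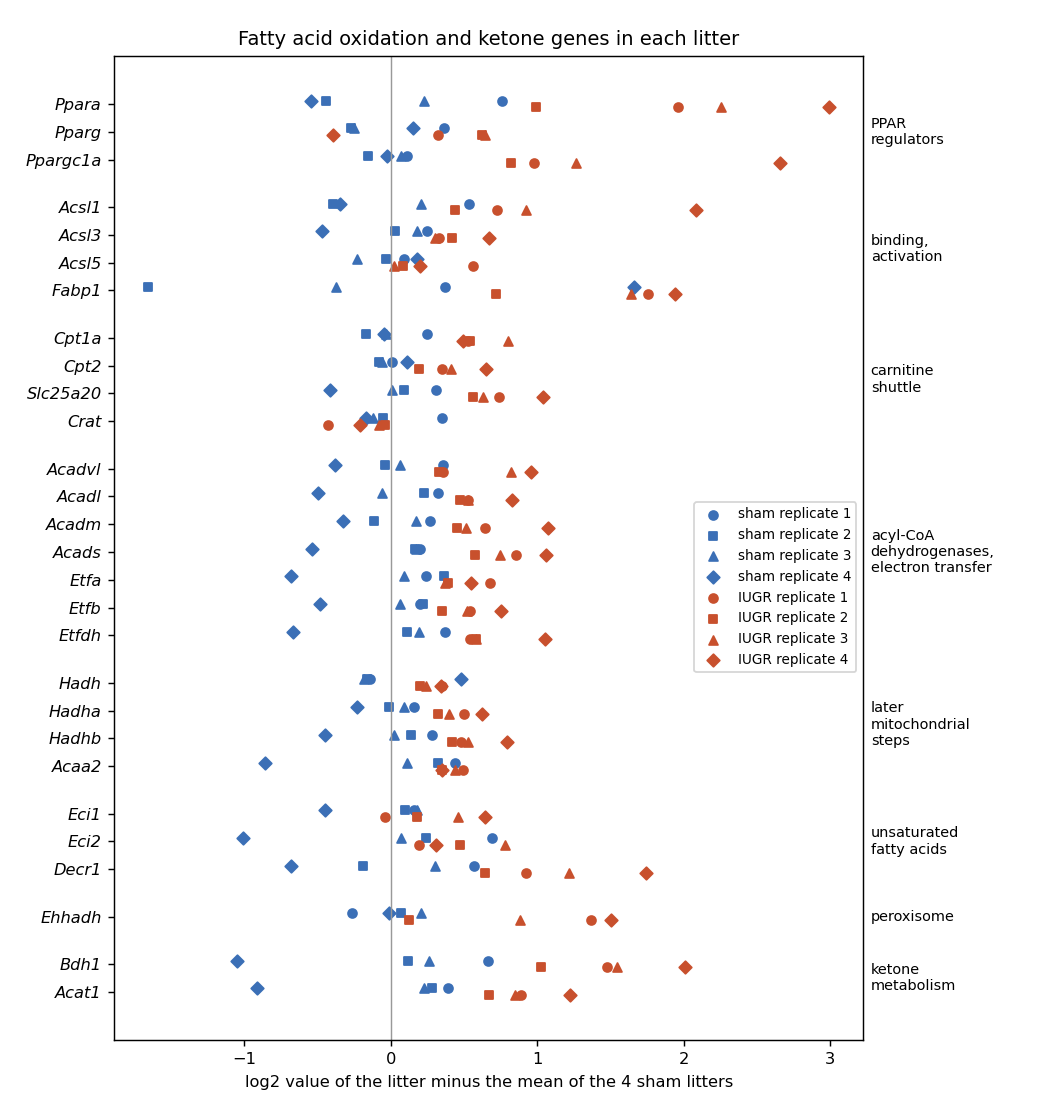
Each row is 1 of the 28 genes and each point 1 litter, plotted as its log2 value minus the mean of the 4 sham litters (horizontal axis, log2), with blue for sham, red for IUGR and the symbol for the replicate number. In 17 rows all red points lie to the right of all blue points, and sham replicate 4 (blue diamond) is the lowest sham litter in 19 rows.

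Among the regulators, Ppara and its coactivator Ppargc1a were higher in every IUGR litter than in any sham litter. Ppara read 8.47, 7.27, 7.93 and 7.16 in sham replicates 1 to 4 and 9.67, 8.70, 9.96 and 10.70 in IUGR replicates 1 to 4. The difference was 2.05 ± 0.44 (SE, n = 4 per group; limma adjusted p = 0.0805), the largest of the list, and it stayed between 1.73 and 2.40 when each litter was left out in turn. IUGR replicate 4 was the highest litter and sham replicate 4 the lowest. Ppargc1a read 6.55, 6.28, 6.50 and 6.41 in sham replicates 1 to 4 and 7.41, 7.26, 7.70 and 9.09 in IUGR replicates 1 to 4. Ppargc1a encodes the coactivator PGC-1 alpha, which drives mitochondrial biogenesis and works with PPAR alpha. Its difference was 1.43 ± 0.37 (SE; adjusted p = 0.108), with the 4 sham litters within 6.28 to 6.55 and IUGR replicate 4 well above the other IUGR litters. Without IUGR replicate 4 it was 1.02. Ppargc1a was the 1 gene of the list among the dimmest 30% of genes tested. Pparg read 8.57, 7.94, 7.95 and 8.36 in sham replicates 1 to 4 and 8.53, 8.83, 8.85 and 7.81 in IUGR replicates 1 to 4. Pparg, the receptor that drives fat cell formation, thus had overlapping groups, and its difference of 0.30 ± 0.25 (SE; adjusted p = 0.466) went from 0.18 and 0.19 without IUGR replicates 3 and 2 to 0.53 without IUGR replicate 4. IUGR replicate 4 was the lowest of all 8 litters for Pparg while it was the highest for Ppara and Ppargc1a.

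PPAR alpha binds DNA with the retinoid X receptor at a direct repeat of the hexamer AGGTCA with 1 base between the copies, called DR1. RefSeq promoter sequences (250 bases before to 50 after the gene start, build GRCr8) matched 26 of the 29 genes, and these were searched on both strands. A DR1 with at most 2 mismatches (AGGTCANAGGTCA) was found in 5 of the 26, or 19.2%, and in 3.72% of 27457 promoters of this length. The hexamer AGGTCA itself, which a DR1 can contain, was found in 5 of the 26 (19.2%) and in 15.7% of promoters, and TCAAGGTCA, the site of estrogen-related receptors, in 0 of the 26 and 0.412% of promoters. The 5 matches are printed with up to 40 bases on either side, none of them past the gene start, in the direction of the gene and with the match in capitals. For Slc25a20, whose match lies 15 bases after the start, only the match is shown.
Fabp1, chr4:104749223-104749315, plus strand, 1 mismatch, 64 bases before the start: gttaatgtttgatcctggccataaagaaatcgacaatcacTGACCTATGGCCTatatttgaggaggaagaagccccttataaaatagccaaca
Acadvl, chr10:55236706-55236762, minus strand, 1 mismatch, 4 bases before the start: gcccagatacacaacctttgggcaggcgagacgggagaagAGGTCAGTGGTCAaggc
Etfa, chr8:64788067-64788159, minus strand, 2 mismatches, 141 bases before the start: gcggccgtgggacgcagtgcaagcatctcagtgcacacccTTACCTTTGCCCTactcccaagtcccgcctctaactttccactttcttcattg
Crat, chr3:34087270-34087349, minus strand, 2 mismatches, 210 bases before the start: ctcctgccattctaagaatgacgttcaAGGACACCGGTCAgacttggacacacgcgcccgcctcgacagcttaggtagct
Slc25a20, chr8:118243588-118243600, plus strand, 2 mismatches, 15 bases after the start: AGGTGAAAGGTCG
The Fabp1 and Etfa matches are on the strand opposite to the gene. Fabp1 is known as a classical PPAR alpha target with such an element in its promoter. The 5 genes did not share a pattern across litters: Slc25a20 and Etfa had groups without overlap, Fabp1 and Acadvl overlapped, and Crat was the gene with a lower mean in IUGR. The genes were listed for their place in a pathway that PPAR alpha regulates, so the shares of promoters do not describe the difference between groups. A match of letters is not a binding site, and binding was not measured.

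Fatty acid binding and activation were represented by Fabp1 and 3 acyl-CoA synthetases. Fabp1 read 8.28, 6.25, 7.53 and 9.57 in sham replicates 1 to 4 and 9.66, 8.63, 9.55 and 9.85 in IUGR replicates 1 to 4. Fabp1, the fatty acid binding protein of liver and intestine, differed by 1.51 ± 0.64 (SE, n = 4 per group; limma adjusted p = 0.183). Sham replicate 4 was level with the IUGR litters and sham replicate 2 was far below the rest, so that the SD was 1.39 among sham and 0.54 among IUGR litters. Omitting sham replicate 2 gave a difference of 0.96, and omitting sham replicate 4 gave 2.07. The mean of 7 intestine markers was 6.66, 8.36, 7.03 and 8.61 in sham replicates 1 to 4 and 9.63, 7.76, 7.60 and 7.23 in IUGR replicates 1 to 4. It was thus above 8 in sham replicates 2 and 4, the lowest and the highest sham litter for Fabp1. The single markers did not all differ the same way between them. Of these litters, sham replicate 4 was the higher for Fabp2 (10.49 against 7.57), Apoa4 (9.07, 7.77), Vil1 (9.91, 9.54) and Alpi (7.90, 7.49). The same litter was the lower for Cdh17 (9.10 against 10.69), Cdx2 (7.94, 9.32) and Si (5.88, 6.15). The part of intestinal cells in the Fabp1 values was not tested. Acsl1 read 9.57, 8.65, 9.24 and 8.70 in sham replicates 1 to 4 and 9.76, 9.48, 9.96 and 11.12 in IUGR replicates 1 to 4. Acsl1, the long-chain synthetase of liver and fat, differed by 1.04 ± 0.37 (SE; adjusted p = 0.144), with IUGR replicate 2 just below sham replicate 1, and by 0.69 without IUGR replicate 4. Acsl3 read 10.84, 10.62, 10.77 and 10.12 in sham replicates 1 to 4 and 10.92, 11.01, 10.89 and 11.26 in IUGR replicates 1 to 4. Acsl3, linked to lipid droplets, differed by 0.44 ± 0.17 (SE; adjusted p = 0.162) and its groups did not overlap, but the difference was 0.28 without sham replicate 4. Acsl5 overlapped, with means of 11.16 and 11.38 and a difference of 0.21 ± 0.14 (SE; adjusted p = 0.355) that was 0.10 without IUGR replicate 1 and 0.14 without sham replicate 3.

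The carnitine shuttle carries long acyl chains across the inner mitochondrial membrane, and its 3 long-chain steps had groups without overlap. Cpt1a read 10.28, 9.86, 10.00 and 9.99 in sham replicates 1 to 4 and 10.56, 10.57, 10.83 and 10.52 in IUGR replicates 1 to 4. Cpt1a makes acylcarnitine on the outer membrane and is the step that malonyl-CoA blocks. Its difference of 0.59 ± 0.12 (SE, n = 4 per group; limma adjusted p = 0.0739) had the smallest p of the list, a fold of 1.51, and the IUGR litters kept within 10.52 to 10.83. Slc25a20 read 10.06, 9.84, 9.75 and 9.34 in sham replicates 1 to 4 and 10.49, 10.31, 10.38 and 10.79 in IUGR replicates 1 to 4. Slc25a20, the carrier that exchanges acylcarnitine for carnitine, differed by 0.75 ± 0.17 (SE; adjusted p = 0.0922). Cpt2 read 10.83, 10.74, 10.76 and 10.93 in sham replicates 1 to 4 and 11.17, 11.01, 11.23 and 11.47 in IUGR replicates 1 to 4. Cpt2, which returns the chain to coenzyme A inside, differed by 0.40 ± 0.11 (SE; adjusted p = 0.117). Crat, which acts on acetyl groups and other short chains, did not share the pattern. Crat read 10.94, 10.54, 10.47 and 10.42 in sham replicates 1 to 4 and 10.16, 10.55, 10.51 and 10.38 in IUGR replicates 1 to 4. Its difference was -0.19 ± 0.14 (SE; adjusted p = 0.402), sham replicate 1 was its highest litter, and the difference was -0.08 without that litter and -0.11 without IUGR replicate 1.

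The acyl-CoA dehydrogenases take the first electrons of each cycle and hand them to electron transfer flavoprotein. All 7 genes of this step were higher in IUGR, by 0.50 to 0.81, and 6 of the 7 had groups without overlap. Acads read 9.13, 9.09, 9.10 and 8.39 in sham replicates 1 to 4 and 9.78, 9.51, 9.67 and 9.99 in IUGR replicates 1 to 4. Acads, the short-chain enzyme, differed by 0.81 ± 0.19 (SE, n = 4 per group; limma adjusted p = 0.0946). Sham replicates 1, 2 and 3 lay within 9.09 to 9.13 and sham replicate 4 lay far below. Acadm read 10.11, 9.73, 10.01 and 9.51 in sham replicates 1 to 4 and 10.48, 10.29, 10.35 and 10.91 in IUGR replicates 1 to 4. Acadm, the medium-chain enzyme whose loss is a common inherited oxidation defect, differed by 0.67 ± 0.18 (SE; adjusted p = 0.116). Acadl read 11.22, 11.13, 10.84 and 10.40 in sham replicates 1 to 4 and 11.43, 11.37, 11.43 and 11.73 in IUGR replicates 1 to 4. Acadl, the long-chain enzyme, differed by 0.59 ± 0.18 (SE; adjusted p = 0.129), with IUGR replicates 1, 2 and 3 close together. Acadvl read 10.10, 9.70, 9.80 and 9.36 in sham replicates 1 to 4 and 10.10, 10.07, 10.56 and 10.70 in IUGR replicates 1 to 4. Acadvl, for very long chains, differed by 0.62 ± 0.20 (SE; adjusted p = 0.135), and sham replicate 1 was level with IUGR replicates 1 and 2.

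Electron transfer flavoprotein is made of the products of Etfa and Etfb, and Etfdh passes its electrons to ubiquinone. Etfa read 11.78, 11.90, 11.63 and 10.86 in sham replicates 1 to 4 and 12.22, 11.93, 11.91 and 12.09 in IUGR replicates 1 to 4. Etfb read 11.58, 11.60, 11.44 and 10.90 in sham replicates 1 to 4 and 11.92, 11.73, 11.90 and 12.13 in IUGR replicates 1 to 4. Etfdh read 10.25, 9.99, 10.07 and 9.21 in sham replicates 1 to 4 and 10.42, 10.46, 10.46 and 10.93 in IUGR replicates 1 to 4. In each of the 3 genes sham replicate 4 was the lowest litter by a wide margin, and the gap between the highest sham and the lowest IUGR litter was small, least so for Etfdh. Differences were 0.50 ± 0.22 (SE; adjusted p = 0.196) for Etfa, 0.54 ± 0.17 (SE; adjusted p = 0.131) for Etfb and 0.69 ± 0.23 (SE; adjusted p = 0.139) for Etfdh, and without sham replicate 4 they were 0.27, 0.38 and 0.46.

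In the later steps of the mitochondrial cycle, Hadha and Hadhb, the subunits of the trifunctional protein of the inner membrane, had groups without overlap. Hadha read 12.17, 12.00, 12.10 and 11.78 in sham replicates 1 to 4 and 12.51, 12.33, 12.41 and 12.63 in IUGR replicates 1 to 4. Hadha differed by 0.45 ± 0.11 (SE, n = 4 per group; limma adjusted p = 0.0999), and its other, dimmer probe set gave 0.56, also without overlap. Hadhb read 11.61, 11.47, 11.35 and 10.88 in sham replicates 1 to 4 and 11.81, 11.75, 11.86 and 12.12 in IUGR replicates 1 to 4. Hadhb differed by 0.56 ± 0.17 (SE; adjusted p = 0.126). Both genes thus had the 4 IUGR litters in a narrow band just above the sham litters. Hadh read 12.20, 12.18, 12.16 and 12.82 in sham replicates 1 to 4 and 12.69, 12.54, 12.58 and 12.68 in IUGR replicates 1 to 4. Hadh, the dehydrogenase for shorter chains that beta cells hold at a high level, went another way in 1 litter. Sham replicate 4 was its highest litter of all 8, and the other sham litters were all below the IUGR litters. The difference was 0.29 ± 0.15 (SE; adjusted p = 0.267) over all litters and 0.45 without sham replicate 4, where it passed the threshold (limma adjusted p = 0.0487, with 1.08% of all genes past 0.05 and no other gene of the list). That litter also had the highest endocrine marker mean. Acaa2, the thiolase that ends the cycle, differed by 0.41 ± 0.26 (SE; adjusted p = 0.339), with a mean of 12.36 in sham and 12.77 in IUGR litters. It read 11.50 in sham replicate 4 but 12.47 to 12.80 in sham replicates 1 to 3. Without sham replicate 4 the difference was 0.12.

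Unsaturated chains need helper enzymes that move or remove double bonds. Decr1 read 9.33, 8.57, 9.06 and 8.08 in sham replicates 1 to 4 and 9.69, 9.40, 9.98 and 10.50 in IUGR replicates 1 to 4. Decr1, the reductase for chains with several double bonds, differed by 1.13 ± 0.32 (SE, n = 4 per group; limma adjusted p = 0.12), a fold of 2.19. Sham replicate 4 was its lowest and IUGR replicate 4 its highest litter. The isomerase genes Eci1 and Eci2 overlapped between groups. Eci1 differed by 0.31 ± 0.19 (SE; adjusted p = 0.323) and Eci2 by 0.44 ± 0.33 (SE; adjusted p = 0.414), and without sham replicate 4, the lowest litter in both, by 0.16 and 0.10. Eci2 differed by 0.67 without sham replicate 1, and Eci1 by 0.20 without IUGR replicate 4.

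In the peroxisome, Ehhadh encodes an enzyme with hydratase and dehydrogenase activity and is strongly induced by PPAR alpha ligands in rat liver. Ehhadh read 7.49, 7.83, 7.96 and 7.74 in sham replicates 1 to 4 and 9.12, 7.88, 8.64 and 9.26 in IUGR replicates 1 to 4. It differed by 0.97 ± 0.29 (SE; adjusted p = 0.126). IUGR replicates 1, 3 and 4 were above all sham litters, while IUGR replicate 2 lay inside the sham range of 7.49 to 7.96.

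Both ketone genes had groups without overlap. Bdh1 read 10.30, 9.75, 9.90 and 8.59 in sham replicates 1 to 4 and 11.11, 10.66, 11.18 and 11.64 in IUGR replicates 1 to 4. Bdh1 interconverts acetoacetate and 3-hydroxybutyrate, the main ketone body of blood. Its difference was 1.51 ± 0.36 (SE, n = 4 per group; limma adjusted p = 0.0959), a fold of 2.85, and it stayed at 1.16 without sham replicate 4. Acat1 read 11.72, 11.61, 11.56 and 10.42 in sham replicates 1 to 4 and 12.22, 12.00, 12.18 and 12.55 in IUGR replicates 1 to 4. Acat1, a mitochondrial thiolase that acts in both ketone synthesis and ketone use, differed by 0.91 ± 0.29 (SE; adjusted p = 0.131). Without sham replicate 4, which lay more than 1 below every other litter, its difference was 0.61.

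**Figure D2:**
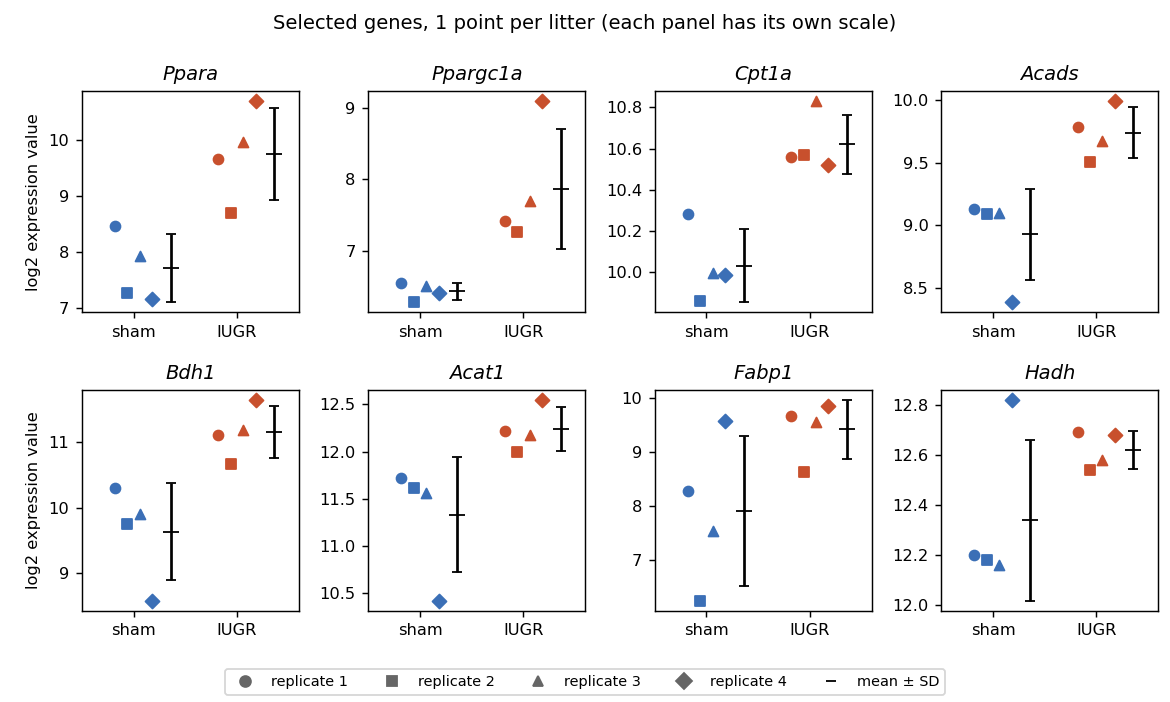
Log2 expression values of 8 genes (vertical axis, with its own scale in each panel), with 1 point per litter and the symbol for the replicate number; the bars beside the points are the mean ± SD of 4 litters. The groups do not overlap for Ppara, Ppargc1a, Cpt1a, Acads, Bdh1 and Acat1, whereas sham replicate 4 lies among or above the IUGR litters for Fabp1 and Hadh.

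A list of 73 other genes of the pathway, of which 63 were measured, was set beside the 28. In IUGR 54 of the 63 had a higher mean, with a median difference of 0.38 (log2). None passed the threshold (limma, adjusted p from 0.0805 to 0.921), and at an unadjusted p under 0.05 there were 29 higher and 2 lower, against the 15.4% and 10.7% of all genes. Groups did not overlap in 19, with 17 higher and 2 lower, against 15.5% of all genes in either direction. All 8 other genes of mitochondrial oxidation and all 14 of peroxisomal oxidation had a higher mean, with medians of 0.58 and 0.49. Differences of the 14 peroxisomal genes went down to 0.02, and the groups overlapped in 10 of them. Of the 63 genes, the 8 of smallest p had adjusted p from 0.0805 to 0.12 (limma). These were Acad11 (0.59 ± 0.13), Sirt3 (0.46 ± 0.10), Phyh (1.17 ± 0.27), Cpt1b (1.31 ± 0.31), Cyp4a3 (2.12 ± 0.51), Hacl1 (0.57 ± 0.14), Acaa1b (0.81 ± 0.22) and Lpin1 (0.91 ± 0.25, all SE, n = 4 per group). Sirt3 is the main deacetylase of mitochondrial proteins and Cpt1b the muscle form of Cpt1. Phyh and Hacl1 act in the peroxisomal pathway that removes single carbons from branched chains. Cyp4a3 hydroxylates the far end of fatty acids and is a classical PPAR alpha target in rodent liver. Of the 12 genes listed as other PPAR targets, Cyp4a3 among them, 6 had a higher mean, with a median of 0.02. Probe sets of close relatives such as Acaa1b with Acaa1a, or the Cyp4a genes, may share signal.

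Of the 5 measured other genes of ketone metabolism, 4 had a higher mean in IUGR, with a median of 0.57 over the 5 and none past the threshold (limma, adjusted p from 0.177 to 0.426), and Oxct1 had a lower one. Oxct1 read 6.31, 6.44, 6.55 and 6.35 in sham replicates 1 to 4 and 6.21, 6.29, 6.23 and 6.15 in IUGR replicates 1 to 4. Oxct1, the transferase with which tissues other than liver start to use ketone bodies, was thus lower in every IUGR litter, by a small -0.19 ± 0.08 (SE; adjusted p = 0.192), and after quantile normalization its difference was no longer negative, at 0.0035. Its mean lay at percentile 16.7 of all genes tested, so that it was among the dimmer genes.

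Markers of 9 cell types were set beside these genes, and no mean had an adjusted p under 0.05. Acinar, duct and mesenchyme means had the smallest exact permutation p that 4 against 4 litters can give (0.0286, adjusted p = 0.0857). These cell types alone could thus not have passed the threshold, so it does not decide whether their means differ. All 16 liver markers had a higher mean in IUGR, among them Alb, Afp and Ttr, but only 2 of the 16 had groups without overlap. Their mean was 11.69, 9.59, 11.20 and 8.79 in sham replicates 1 to 4 and 12.18, 11.52, 12.47 and 12.88 in IUGR replicates 1 to 4, with 1 overlap, IUGR replicate 2 below sham replicate 1 (exact two-sided permutation p = 0.0571, adjusted p = 0.129 over 9 cell types). The litters with the lowest and the highest liver marker mean, sham replicate 4 and IUGR replicate 4, were also the lowest litter for 18 and the highest for 20 of the 28 oxidation genes. The share of all genes that were lowest or highest in these litters is not given, so the counts have no background. Sham replicate 4 and IUGR replicate 4 were likewise lowest and highest for the acinar marker mean (9.35 and 11.98). For the mesenchyme marker mean they were highest and lowest (12.17 and 10.18). Within each group the mean of the 28 genes put the litters in the same order as the liver marker mean, from sham replicate 4 (9.73) to 1 (10.34) and from IUGR replicate 2 (10.50) to 4 (11.04). For Ppara, Acadvl, Decr1 and Bdh1 the order of the litters within each group was that of the liver marker mean. The order was not kept in both groups for the other 24. Single genes were compared with the order of the liver markers only, and the share of all genes that keep it is not given. In sham replicate 1 and IUGR replicate 2, whose liver marker means were closest, 22 of the 28 genes were higher in the IUGR litter, with a median difference of 0.18 where all genes had -0.02 and 45.55% of them were higher. In that pair of litters Ppargc1a differed by 0.71, Acads by 0.37, Bdh1 by 0.36, Cpt1a by 0.29 and Ppara by 0.23, while Crat differed by -0.38. The same litters were far apart in other markers, with means of 10.27 and 11.36 for acinar and 9.67 and 11.07 for duct markers. This pair is 1 litter against 1 and has no test.

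**Figure D3:**
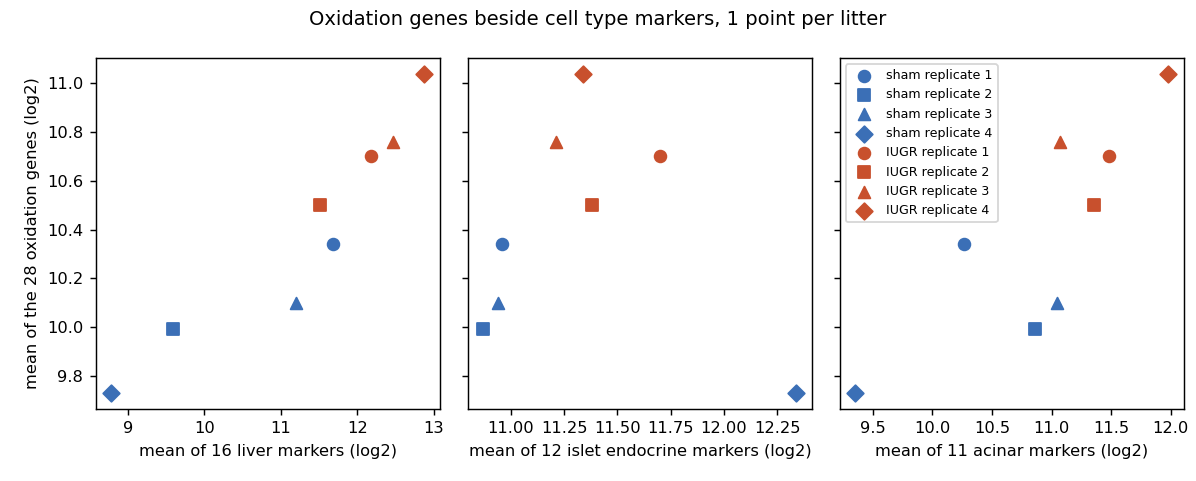
Mean of the 28 oxidation genes (vertical axis, log2) against the mean of the liver, islet endocrine and acinar markers (horizontal axes, log2), with 1 point per litter, blue for sham and red for IUGR. The oxidation mean runs from 9.73 in sham replicate 4, which has the lowest liver and acinar and the highest endocrine marker means, to 11.04 in IUGR replicate 4, which has the highest liver and acinar means.

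All 11 acinar markers and all 8 duct markers had a higher mean in IUGR, and the 2 list means did not overlap between groups (9.35 to 11.05 against 11.07 to 11.98, and 9.67 to 10.36 against 10.94 to 11.38; exact p = 0.0286 for each, the smallest that 4 against 4 can give, adjusted p = 0.0857). Single markers overlapped in 7 of the 11 and 3 of the 8. All 8 mesenchyme markers had a lower mean in IUGR, and the list mean was 11.50 to 12.17 in sham and 10.18 to 11.49 in IUGR litters, with the same p-values. The groups were thus barely apart, and single markers such as Lum, Pdgfra and Col1a2 overlapped. Macrophage markers, with means from 10.84 to 11.44 in sham and from 9.82 to 10.89 in IUGR litters, overlapped (exact p = 0.171), as did erythroid markers (12.22 to 12.80 and 11.17 to 12.36, exact p = 0.0857). Endocrine marker means overlapped only through sham replicate 4, at 12.34 (exact p = 0.743). Sham replicates 1 to 3, at 10.87 to 10.96, lay below all IUGR litters, at 11.21 to 11.70. Intestine (exact p = 0.657) and adipocyte markers (exact p = 0.914) overlapped widely. Adipoq, which defines fat cells, lay between 5.99 and 6.24 on every array. Other adipocyte markers were brighter, with Cidec at 9.17 in IUGR replicate 1 and Fabp4 at 9.16 in sham replicate 4. Of the 7 adipocyte markers, these 2 had a higher mean in IUGR, by 0.67 and 0.06. The part of liver, acinar, duct or other cells in the differences of the oxidation genes was not tested.

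**Figure D4:**
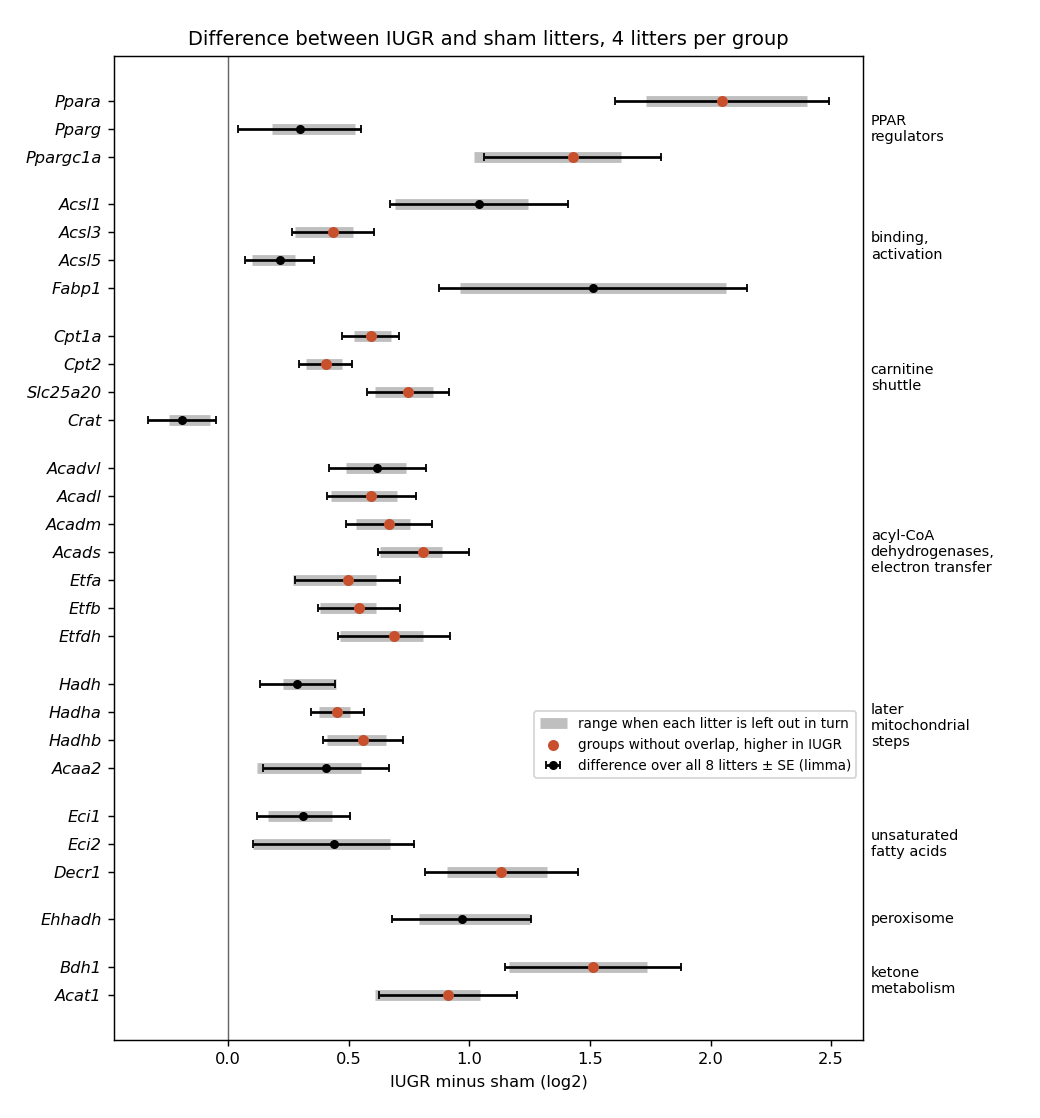
IUGR minus sham difference of each gene (horizontal axis, log2), with the point and bar for the limma estimate ± SE over 8 litters and the grey band for the range when each litter is left out in turn; red points mark groups without overlap. The estimate is above 0 for 27 genes under every omission, with Ppara farthest right at 2.05 and Crat at -0.19.

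Which genes passed the threshold depended on single litters, and the sign of the 28 differences did not. Leaving out each litter in turn, 27 of 28 genes had a higher mean in IUGR every time, with the median between 0.46 (without sham replicate 4) and 0.69 (without sham replicate 1). Without sham replicate 1, the highest sham litter in 20 genes, 11 of 28 passed (limma, adjusted p under 0.05), namely Ppara, Cpt1a, Slc25a20, Acadvl, Acadl, Acadm, Acads, Hadha, Hadhb, Decr1 and Bdh1, against 18.9% of all genes. After quantile normalization with that litter left out, Ppara, Cpt1a and Hadha passed, against 6.25% of all genes. With array weights 22 of 28 passed, against 43.8% of all genes. The weights were 0.26, 1.03, 7.82 and 0.20 for sham replicates 1 to 4 and 0.59 to 1.88 for the IUGR litters, so that the weighted sham mean rests mostly on sham replicate 3.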

How the data were processed

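The authors deposited log2 values computed with RMA, per the submitters' processing notes, with software and version not given in the sources used here. Spread of gene values still differed between arrays, so quantile normalization was among the alternatives. Of 29214 probe sets, 15310 had 1 gene in the platform annotation, 323 several and 13581 none; 15279 of the probe sets with 1 gene had a gene identifier in RefSeq (GRCr8). The brightest probe set stood for each of 14506 genes. IUGR and sham litters were compared with limma 3.58.1 (R 4.3.3; lmFit, eBayes, no covariate, two-sided), adjusted over all genes by Benjamini-Hochberg at 0.05. The script was tested on simulated data. Marker means were compared by exact permutation (scipy 1.17.1, 70 arrangements, two-sided). Arrays have no read depth; their number limits precision.

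The genes, lists, tests and alternatives were chosen with earlier results of these data known. All 28 measured genes were named; values by litter are given for the regulators, Fabp1, genes without overlap and the 4 of largest difference, and also for Acsl1, Crat, Acadvl, Hadh and Ehhadh. Other pathway genes were named by the 8 smallest p, with Oxct1. Alternatives were quantile normalization, median centring, array weights, dropping the dimmest 30% of genes, the mean of probe sets, a robust prior with a trend, a replicate block and leaving out each litter; quantile normalization without sham replicate 1 was added after the data were seen.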

Additional observations from a re-analysis of the deposited data

Results flagged for a closer look

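In 6 of 74 groups of 4 litters, over the 28 genes and 9 other named genes, 1 litter stood far from the other 3 by Dixon's test; chance gives about 1 in 20 groups, and genes of 1 litter are not independent. Sham replicate 4 was the litter in 4 of them. Acads read 8.39 there against 9.09 to 9.13 in the other sham litters, Eci1 10.58 against 11.13 to 11.21, Acat1 10.42 against 11.56 to 11.72, and Hadh, the 1 gene that was high, 12.82 against 12.16 to 12.20. IUGR replicate 4 was the litter in the other 2, with Acadl at 11.73 against 11.37 to 11.43 and Etfdh at 10.93 against 10.42 to 10.46.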

How the results depend on the processing

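Of 590 comparisons of 37 named genes under an alternative, 588 kept the sign; Oxct1 turned to 0.003547 after quantile normalization and to 0.03627 with sham replicate 1 also left out. No oxidation gene passed after quantile normalization (21 at an unadjusted p under 0.05, median of the 28 genes 0.48), median centring (0.59), without dim genes (0.59 over 27), with the trended robust prior or with the mean of probe sets. Without dim genes the median over all remaining genes was 0.14, against 0.04 over all genes tested. Array weights, with most sham weight on replicate 3, gave 22 of the 28 genes, 38 of the 63 other pathway genes and 6358 of all genes past the threshold. Quantile normalization with sham replicate 1 left out gave 3, 6 and 906. Leaving out 1 litter gave 0 to 11 of the 28, 0 to 15 of the 63 and 0 to 2738 of all genes. The count over all genes, 36, was 0 after quantile normalization and 59 without dim genes. With the replicate block it was 0, and 0 of the 28 (18 at an unadjusted p under 0.05) and 0 of the 63 passed (limma); labels give litters of different dams the same number, deviations of same-numbered litters correlated at -0.43 to 0.10, and no sham litter matched best with its own number. With all litters kept, genes without overlap numbered 15 to 17 of the 28, and 16 of the 27 without dim genes. With 1 litter left out they numbered 17 to 20, but a smaller group separates by chance more often. The share of all genes without overlap is not given for these alternatives, so their counts cannot be set against a background. Signal over background is not given for these values, so a low value such as that of Ppargc1a in sham litters cannot be told from background.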
